A study of Homo sapiens with 6 samples.

Results

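Aminoacyl-tRNA synthetases are the enzymes that load each tRNA with its amino acid. Their genes were followed here in Caco2 cells, a human colon cancer line, that were either sensitive or resistant to methotrexate (MTX). Members were chosen by name. Every gene whose symbol is 1 letter followed by ARS, ARS1 or ARS2 was taken, together with EPRS1, FARSA, FARSB and the scaffold genes AIMP1 and AIMP2, which gave 39 genes. Of these, 33 had a probe set that belongs to that gene alone, among 11849 genes tested on the arrays, and all 33 were bright enough to be tested. They comprised 17 of 20 cytosolic enzymes, 15 of 17 mitochondrial enzymes, whose symbols end in 2, and AIMP1. The other 6 genes were not analysed here, among them AIMP2, for which no probe set was listed, and MARS1, QARS1 and TARS2, whose probe sets were all listed with a second gene.

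Parental Caco2 cells gave 3 arrays and cells able to grow in 10 µM MTX another 3. The resistant cells had been raised by stepwise exposure to MTX. Their medium held no glycine, hypoxanthine or thymidine and its serum was dialyzed, while parental cells grew in Ham's F12, so medium and resistance cannot be told apart. Whether the resistant cells are 1 clone is not given in the sources used here.

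As background, each cytosolic enzyme charges tRNAs for the ribosomes of the cytoplasm, and a separate set of nuclear genes encodes the enzymes imported into mitochondria. GARS1 and KARS1 serve both compartments from a single gene. EPRS1 is a fused enzyme for glutamate and proline, and FARSA and FARSB are the subunits of the cytosolic phenylalanine enzyme. Mitochondria have no glutamine enzyme of their own and instead convert a mischarged tRNA with an amidotransferase built from QRSL1, GATB and GATC. When amino acids run short, uncharged tRNA activates the kinase EIF2AK4 (GCN2), and the transcription factor ATF4 then raises amino acid synthesis and transport genes along with many cytosolic synthetases.

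Signals below are multiples of the median signal of the array, and changes are log2 values of resistant over parental cells, ± SE. Adjusted p-values are from limma with Benjamini-Hochberg adjustment over all tested probe sets, and "rose" and "fell" are kept for genes with such a value below 0.05. Parental array 3 stood apart from the other parental arrays. Across tested probe sets it correlated with them at r = 0.949 and 0.946, while parental arrays 1 and 2 correlated at 0.966, and all between-group values lay from 0.914 to 0.939. Its 5' probe set for 18S ribosomal RNA had a deposited intensity of 1799.8, against 56.8 to 374.7 on the others (not divided by the array median). Its GAPDH 3'/5' ratio of 0.987 lay near their 0.904 to 0.974. The part of RNA quality in the values of this array was not tested. The synthetase genes and the counts of called genes in each list are therefore given with all 6 arrays and again without parental array 3. Gene pairs and single genes of the related lists are given both ways only in part. Of 10 colon epithelial markers 8 had a mean over the 6 arrays above the array median, with CDX1 and CDX2 below it. The summed signal of the 10 was 1600 to 1970 on parental and 2250 to 2330 on resistant arrays. The summed fibroblast markers reached 4.96 to 5.70 and 7.49 to 8.38, and the summed endothelial markers 2.06 to 3.50 and 2.57 to 2.90. Of the fibroblast markers bright enough to be tested by their mean over the 6 arrays, LUM rose (3.20 ± 0.55, adjusted p = 0.00717). COL1A1 gave -0.15 ± 0.18 (adjusted p = 0.633). LUM read 0.198 to 0.352 on the parental arrays, below the array median, and averaged 2.57 on the resistant arrays. LUM was thus tested only because of its resistant signals, and the size of its rise rests on low parental values. PTPRC and CD3E, which define leukocytes, averaged below the array median over the 6 arrays. CD3E was above it on the parental arrays, at 1.04 to 1.42, and read 0.038 to 0.844 on the resistant arrays. CD14, a monocyte marker, read 5.49 to 14.8 on parental and 6.66 to 8.89 on resistant arrays. LYZ, a lysozyme gene that intestinal epithelium also expresses, made up most of the immune sum of 299 to 359 and 501 to 558. The part of these markers in the results was not tested.

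With all 6 arrays, 1 of the 33 genes rose and 0 fell in resistant cells. Over all tested genes 7.37% were called higher and 5.05% lower. At an unadjusted p below 0.05 in limma, 7 members were higher and 2 lower, against 17.3% and 13.5% of all tested genes. The single call was RARS2, the mitochondrial arginine enzyme. All 3 resistant arrays lay above all 3 parental arrays for 9 members and below them for 0, where 20.2% of all tested genes were higher and 15.2% lower in this sense. The median change of the 17 cytosolic genes was -0.06 and that of the 15 mitochondrial genes 0.26, against 0.02 over all tested genes.

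Leaving out parental array 3 changed the cytosolic result. In the remaining 3 resistant and 2 parental arrays, 10 of 17 cytosolic genes fell and 1 rose, with a median of -0.63. Of the 15 mitochondrial genes 7 rose and 0 fell, with a median of 0.39. Over all tested genes 16.9% were then called higher and 15.3% lower, with a median of -0.0033. The difference between the enzyme classes was not tested, because genes are not replicates.

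**Figure D1:**
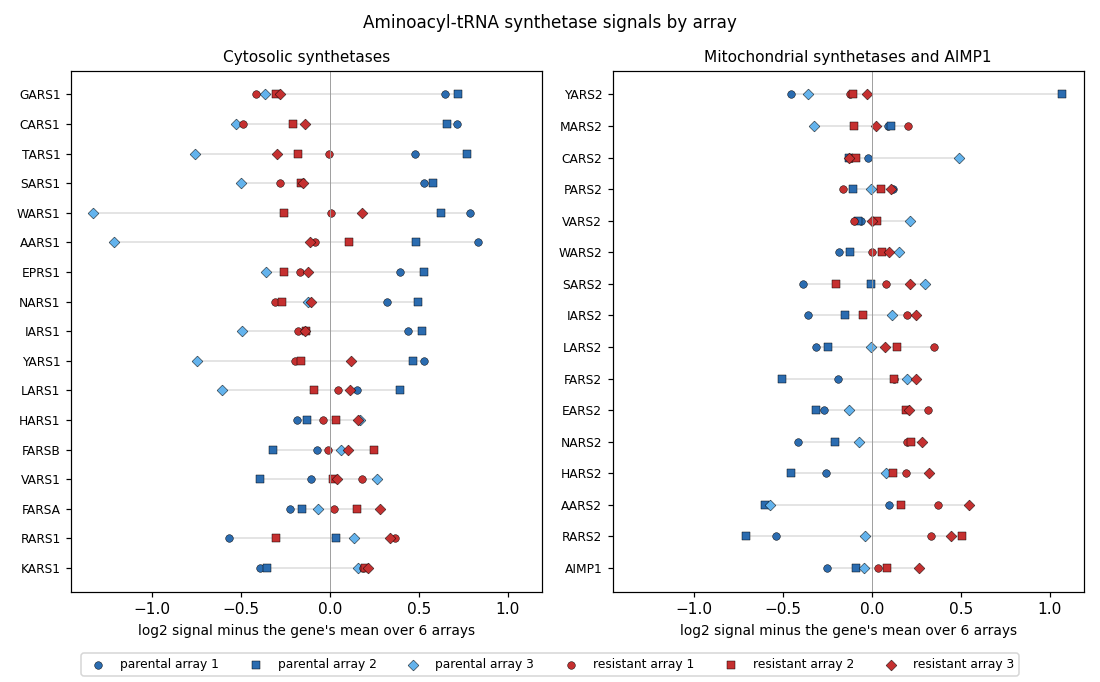
Log2 signal of each measured synthetase gene and of AIMP1 on each of the 6 arrays, after subtraction of the gene's mean over the arrays, with 1 row per gene and 1 marker per array (blue parental, with parental array 3 in light blue, and red resistant). For the 10 cytosolic genes in the top rows of the left panel, parental arrays 1 and 2 lie to the right of all resistant arrays and parental array 3 lies to the left of all resistant arrays in 8 of these genes and among them in GARS1 and NARS1, while RARS2 runs from 12.6 to 20.1 times the array median on parental and from 26.0 to 29.2 on resistant arrays.

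GARS1, the glycine enzyme, showed the largest fall of the synthetases without parental array 3 when each gene was read by its brightest probe set. Its signal was 151 and 159 times the array median on parental arrays 1 and 2, 74.9 on parental array 3, and 72.3, 78.2 and 79.4 in resistant cells. Parental array 3 thus lay among the resistant arrays, and parental arrays 1 and 2 were well above all of these. The change was -0.67 ± 0.24 with all arrays (adjusted p = 0.112) and -1.02 ± 0.09 without parental array 3 (adjusted p = 3.21e-05, a 2.02-fold fall). By brightest probe sets GARS1 was the 1 cytosolic gene with a fall of at least 2-fold in that fit, and dimmer probe sets of SARS1 and CARS1 fell further (-2.12 and -1.22, adjusted p = 4.0e-06 and 5.8e-05).

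CARS1, for cysteine, gave signals of 197 and 190 on parental arrays 1 and 2, 83.4 on parental array 3, and 85.4, 104 and 109 on the resistant arrays. Parental array 3 was the lowest of the 6. Its change was -0.56 ± 0.28 (adjusted p = 0.232), and -0.97 ± 0.11 (adjusted p = 0.000135) without that array. NARS1, for asparagine, stood at 210 and 238 on parental arrays 1 and 2, 155 on parental array 3, and 136, 139 and 156 on the resistant arrays. NARS1 resembled GARS1 in that parental array 3 lay within the range of the resistant arrays. Its change was -0.46 ± 0.15 (adjusted p = 0.0841), and -0.64 ± 0.10 (adjusted p = 0.000794) without that array.

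AARS1 and WARS1, which charge alanine and tryptophan, differed most between the parental arrays. AARS1 read 110 and 85.9 on parental arrays 1 and 2 but 26.5 on parental array 3, with 58.0, 66.2 and 57.0 in resistant cells. WARS1 read 74.8, 67.0 and 17.2 on the parental and 43.6, 36.2 and 49.2 on the resistant arrays. In both genes the resistant arrays lay between parental arrays 1 and 2 above and parental array 3 below. With all arrays the changes were -0.06 ± 0.42 for AARS1 (adjusted p = 0.939) and -0.05 ± 0.45 for WARS1 (adjusted p = 0.957). Without parental array 3 they were -0.69 ± 0.12 (adjusted p = 0.00216) and -0.73 ± 0.14 (adjusted p = 0.00245). Against parental array 3 alone the mean of the resistant arrays was higher by 1.19 for AARS1 and 1.31 for WARS1, a comparison with 1 array that has no test.

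TARS1, SARS1 and YARS1, the enzymes for threonine, serine and tyrosine, had the same order of arrays. TARS1 read 145, 178 and 61.6 on the parental and 104, 91.8 and 84.8 on the resistant arrays. SARS1 read 103, 107 and 50.4 on the parental and 58.6, 63.7 and 64.1 on the resistant arrays, and YARS1 read 118, 113 and 48.9 against 71.7, 73.5 and 89.1. For all 3 genes parental array 3 was the lowest array. The changes with all arrays were -0.33 ± 0.32, -0.40 ± 0.25 and -0.16 ± 0.29 (adjusted p = 0.548, 0.329 and 0.759). Once that array was left out, the genes fell by 0.79, 0.75 and 0.58 (adjusted p = 0.000702, 0.000275 and 0.00345).

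EPRS1 and IARS1, the glutamate-proline and isoleucine enzymes, belong to the cytoplasmic complex that holds several synthetases together. EPRS1 read 70.2, 77.0 and 41.7 on the parental and 47.5, 44.7 and 49.1 on the resistant arrays. IARS1 read 298, 315 and 156 on the parental and 194, 200 and 199.5 on the resistant arrays. In each gene the resistant arrays lay close together, between parental array 3 and the other parental arrays. Without parental array 3 the changes were -0.64 ± 0.11 for EPRS1 (adjusted p = 0.00117) and -0.63 ± 0.08 for IARS1 (adjusted p = 0.000225). With all arrays they were -0.37 ± 0.21 and -0.31 ± 0.22 (adjusted p = 0.285 and 0.412).

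Cytosolic enzymes did not all move this way. KARS1, for lysine, read 237, 244 and 348 on the parental and 354, 357 and 361 on the resistant arrays. All resistant arrays were above all parental arrays, and parental array 3 was close to them. Its change was 0.39 ± 0.14 (adjusted p = 0.0996) and, without that array, 0.57 ± 0.08 (adjusted p = 0.000296). LARS1, for leucine, gave 0.04 ± 0.22 and, without that array, -0.25 ± 0.11 (adjusted p = 0.926 and 0.112). A dimmer probe set of LARS1 fell without that array (-0.54, adjusted p = 0.00405). Its remaining probe sets gave -0.30 and -0.24 (adjusted p = 0.115 and 0.365). The other 5 genes were HARS1, RARS1, VARS1, FARSA and FARSB, which charge histidine, arginine, valine and phenylalanine. Their changes ran from 0.10 to 0.30 with all arrays and from 0.21 to 0.40 without parental array 3, and none of the 5 passed the test in either fit. AIMP1, a scaffold of the complex, gave 0.26 ± 0.12 (adjusted p = 0.199) and, without that array, 0.30 ± 0.11 (adjusted p = 0.0628). Its dimmest probe set rose without that array (0.53, adjusted p = 0.0185), and its remaining probe set gave 0.40 (adjusted p = 0.0691).

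Parental array 3 itself was set against the mean of parental arrays 1 and 2, as a description of 1 array. The cytosolic genes differed by a median of -0.88 and the mitochondrial genes by 0.29, against -0.04 over all tested genes. Relative to each gene's mean over the 6 arrays, the cytosolic median was 0.39, 0.48 and -0.37 on the parental and -0.04, -0.16 and 0.04 on the resistant arrays. That of the mitochondrial genes was -0.26, -0.15 and -0.0032 against 0.19, 0.06 and 0.21. At least 2-fold lower were 7 of 17 cytosolic genes, 0 of 15 mitochondrial genes and 4.67% of all tested genes, and at least 2-fold higher were 0 members and 2.98% of all tested genes. Lower than both other parental arrays were 11 cytosolic genes and 1 mitochondrial gene (42.2% of all tested genes), and higher than both were 6 and 11 (34.9%). These 7 were AARS1, CARS1, GARS1, SARS1, TARS1, WARS1 and YARS1. Parental array 3 was the lowest of the 6 arrays for 9 cytosolic genes and for 1 mitochondrial gene, MARS2, and this held for 20.9% of all tested genes.

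The promoters of the cytosolic genes were searched for the core of the C/EBP-ATF response element, the sequence through which ATF4 with its C/EBP partners acts on amino acid response genes. The letters searched were TGATGNAA on both strands, in RefSeq sequences of build GRCh38.p14 from 250 bases before to 50 bases after each start. Promoters were held for 16 of the 20 cytosolic genes, and 7 of these genes had a match, against 1217 of all 27305 genes (4.46%). Of 14 mitochondrial genes 1 had a match. The matches of the 7 cytosolic genes are shown because 6 of them are measured genes that fell without parental array 3. Each run is 30 bases in the direction of its gene, with the match in capitals (on the other strand it reads TTNCATCA):
AARS1: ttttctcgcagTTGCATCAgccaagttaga
CARS1: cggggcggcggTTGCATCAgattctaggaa
GARS1: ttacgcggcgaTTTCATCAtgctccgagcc
IARS1: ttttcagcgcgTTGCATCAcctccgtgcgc
MARS1: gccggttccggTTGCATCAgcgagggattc
NARS1: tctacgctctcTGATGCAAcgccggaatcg
TARS1: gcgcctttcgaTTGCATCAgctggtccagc

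These runs lie at chr16:70289675-70289704 for AARS1, chr11:3057407-3057436 for CARS1 and chr7:30594834-30594863 for GARS1. Those of IARS1, MARS1, NARS1 and TARS1 lie at chr9:92293692-92293721, chr12:57488053-57488082, chr18:57621804-57621833 and chr5:33440956-33440985. AARS1, CARS1, IARS1 and NARS1 are on the minus strand, and GARS1, MARS1 and TARS1 on the plus strand. The match begins 187 bases before the start in AARS1, 33 in GARS1, 13 in IARS1, 4 in MARS1 and 2 in CARS1, and at base 3 and base 15 of the transcript in TARS1 and NARS1. In 6 of the 7 genes the core is the same, TGATGCAA or its complement, and GARS1 has A in the free position.

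All 6 measured genes with a match fell without parental array 3 (median -0.74), as did 3 of the 8 measured genes whose promoter had no match (EPRS1, SARS1 and WARS1, with a median over the 8 of 0.26). With all 6 arrays these medians were -0.39 and 0.16. Over all tested genes 15.3% fell without parental array 3. Among the amino acid response genes described below, 8 of 9 with a match and 12 of 14 without one fell when parental array 3 was left out (medians -1.43 and -1.08). The mitochondrial match was in YARS2:
YARS2: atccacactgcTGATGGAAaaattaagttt

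This run, at chr12:32756076-32756105 on the minus strand, begins its match 197 bases before the start. YARS2 charges tyrosine, and it read 8.24, 23.8 and 8.82 on the parental and 10.4, 10.5 and 11.1 on the resistant arrays. Parental array 2 stood alone, at more than 2-fold every other array, and the gene passed the test in neither fit (-0.17 ± 0.34 and -0.39 ± 0.33, adjusted p = 0.788 and 0.417). A match describes these letters and does not show that a factor binds there.

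Among mitochondrial enzymes, RARS2, for arginine, read 14.2, 12.6 and 20.1 on the parental and 26.0, 29.2 and 28.0 on the resistant arrays. The groups did not overlap. RARS2 rose 1.81-fold (0.86 ± 0.18, adjusted p = 0.0188), and 2.07-fold without parental array 3 (1.05 ± 0.13, adjusted p = 0.000187). The call was lost when any other single array was left out (adjusted p from 0.0513 to 0.0905), while the change stayed between 0.72 and 0.90. It was also lost without limma's intensity trend (adjusted p = 0.067), with the methods' t-test after adjustment, and with the mean of all its probe sets, where the change was 0.31 (adjusted p = 0.605).

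NARS2, EARS2 and HARS2, the mitochondrial enzymes for asparagine, glutamate and histidine, also had all resistant above all parental arrays. NARS2 read 22.4, 25.9 and 28.5 on the parental and 34.2, 34.8 and 36.3 on the resistant arrays. EARS2 read 9.58, 9.27 and 10.6 against 14.3, 13.2 and 13.4, and HARS2 read 15.8, 13.8 and 20.0 against 21.6, 20.5 and 23.6. Parental array 3 was the parental array nearest to the resistant arrays in each gene. The changes with all arrays were 0.46 ± 0.14, 0.48 ± 0.15 and 0.42 ± 0.17 (adjusted p = 0.0611, 0.0667 and 0.136). In the fit without that array the genes rose by 0.54, 0.53 and 0.57 (adjusted p = 0.00654, 0.0159 and 0.00949).

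LARS2, FARS2 and IARS2, for leucine, phenylalanine and isoleucine, were the other mitochondrial genes that rose in that fit. LARS2 read 9.16, 9.60 and 11.4 on the parental and 14.5, 12.6 and 12 on the resistant arrays. FARS2 read 8.14, 6.55 and 10.6 against 10.1, 10.1 and 11, and IARS2 read 43.4, 50.02 and 60.2 against 63.9, 53.7 and 65.9. For FARS2 and IARS2 parental array 3 fell within the resistant range. The changes with all arrays were 0.38 ± 0.16, 0.33 ± 0.19 and 0.26 ± 0.15 (adjusted p = 0.164, 0.301 and 0.294), and without parental array 3 they were 0.47, 0.51 and 0.39 (adjusted p = 0.0375, 0.0349 and 0.0389). The dimmer probe set of LARS2 passed in neither fit (0.10 and 0.14, adjusted p = 0.70 and 0.540). The dimmer tested probe set of FARS2 rose without parental array 3 (0.83, adjusted p = 0.00661).

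AARS2, for alanine, read 6.30, 3.88 and 3.96 on the parental and 7.62, 6.59 and 8.61 on the resistant arrays, without overlap. Its change was 0.72 ± 0.22 (adjusted p = 0.069) and, without parental array 3, 0.61 ± 0.22 (adjusted p = 0.063). It passed the test when parental array 1 was left out (0.95, adjusted p = 0.0294). The other 6 genes, CARS2, MARS2, PARS2, SARS2, VARS2 and WARS2, lay between -0.23 and 0.10 with all arrays and between -0.06 and 0.23 without parental array 3, and passed the test in neither fit. In CARS2, SARS2, VARS2 and WARS2 parental array 3 was the highest of the 6 arrays.

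**Figure D2:**
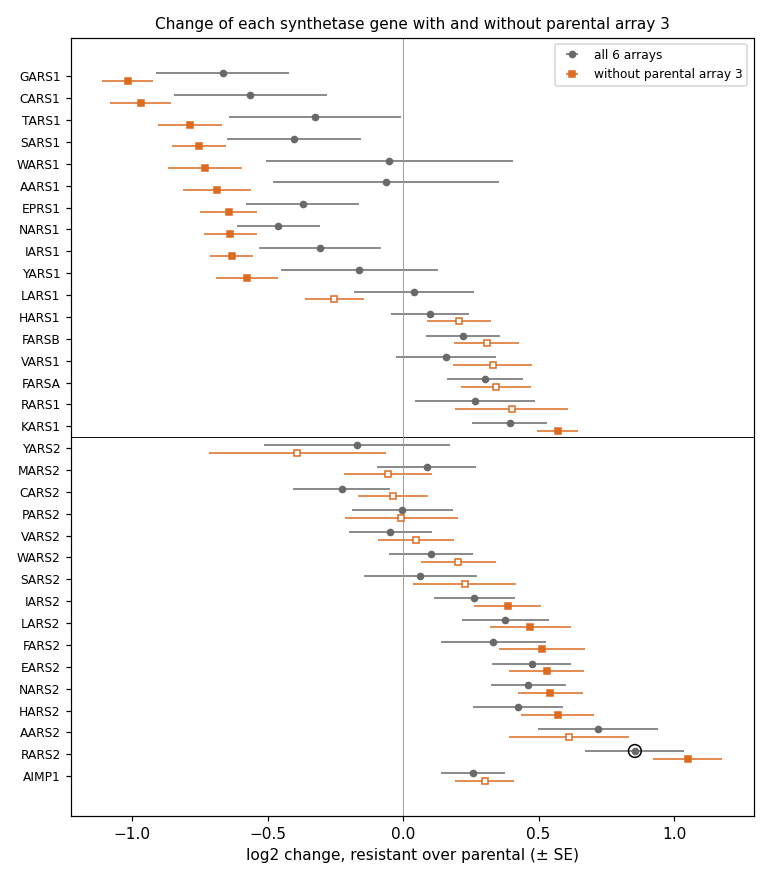
Log2 change (resistant over parental, ± SE) of each measured gene, with all 6 arrays (grey circles) and without parental array 3 (orange squares, filled where the adjusted p was below 0.05). The horizontal line parts the 17 cytosolic genes from the mitochondrial genes and AIMP1, and the ring marks RARS2, the single call with all arrays (0.86 ± 0.18).

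Cytosolic and mitochondrial enzymes for the same amino acid were next set against each other within each array, as the log2 ratio of their signals. There were 15 such pairs, with EPRS1 set against EARS2 and PARS2 and FARS2 set against FARSA and FARSB. The pairs that share a gene are not independent. The change of the cytosolic gene was lower than that of its mitochondrial partner in 13 pairs with all arrays and in 14 without parental array 3. The exceptions with all arrays were VARS1 with VARS2 and YARS1 with YARS2.

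The resistant ratios lay below all parental ratios in 3 of the 15 pairs and above them in 0. No share over the ratios of other genes was computed. Read singly, 15.2% of all tested genes were lower and 20.2% higher in this sense. For NARS1 over NARS2 the ratio, centred on its mean over the arrays, was 0.74, 0.70 and -0.05 on the parental and -0.51, -0.49 and -0.39 on the resistant arrays. The difference between the changes was -0.92 ± 0.26 (n = 3 per group). For EPRS1 over EARS2 the centred ratio was 0.66, 0.84 and -0.23 against -0.49, -0.45 and -0.34, a difference of -0.85 ± 0.34. HARS1 over HARS2 gave 0.07, 0.33 and 0.09 against -0.24, -0.09 and -0.17, a difference of -0.33 ± 0.09 with parental array 3 between the other parental arrays.

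In the remaining 12 pairs the groups overlapped with all arrays. AARS1 over AARS2 gave centred ratios of 0.74, 1.08 and -0.64 on the parental and -0.46, -0.06 and -0.66 on the resistant arrays, a difference of -0.78 ± 0.56. WARS1 over WARS2 gave 0.97, 0.75 and -1.49 against 0.01, -0.32 and 0.09, a difference of -0.15 ± 0.80. Parental array 3 was thus on the resistant side of the other parental arrays in both, and below every resistant array for WARS1. Without parental array 3 the resistant ratios lay below the parental ratios in 10 pairs and above them in 1, VARS1 over VARS2.

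**Figure D3:**
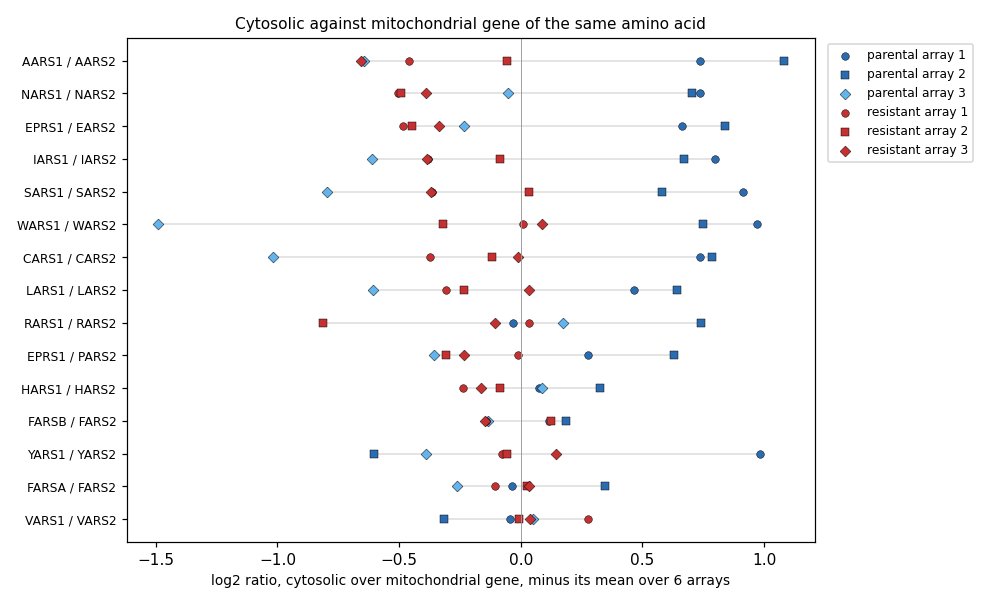
Log2 ratio of the cytosolic over the mitochondrial gene of the same amino acid on each array, after subtraction of the pair's mean over the 6 arrays (blue parental, with parental array 3 in light blue, and red resistant). Parental arrays 1 and 2 both lie to the right of the resistant arrays in 10 of 15 pairs, and all 3 parental arrays do so in HARS1 / HARS2, NARS1 / NARS2 and EPRS1 / EARS2. No share over the ratios of other genes was computed for either count.

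Enzymes of the multi-synthetase complex, which in the cytoplasm joins EPRS1, IARS1, LARS1, KARS1, RARS1 and others around the AIMP scaffolds, were also counted apart from the free enzymes. Of the 6 measured genes of the complex, the scaffold AIMP1 among them, 2 fell and 1 rose without parental array 3 (median 0.02). Of the 12 measured free enzymes 8 fell and 0 rose (median -0.66). Over all tested genes 15.3% fell and 16.9% rose in that fit. With all arrays 0 genes of either set passed the test, and the medians were 0.15 and -0.11. At an unadjusted p below 0.05 in limma, 1 gene of the complex was higher and 2 free enzymes were lower, near the shares of 17.3% and 13.5% of all tested genes. The difference between the sets was not tested.

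The brightest probe set spoke for each gene, and 19 of the 33 genes had more than 1 tested probe set. Of the 61 tested probe sets of members 3 rose and 0 fell with all arrays, where 5.75% of all tested probe sets were called higher and 4.27% lower. These 3 belonged to RARS2 and EARS2. Without parental array 3, 15 rose and 17 fell, where 13.5% were called higher and 13.2% lower. In 16 of these all tested probe sets changed in the same direction without parental array 3. The exceptions were FARSB, YARS1 and EARS2, each through a probe set between 0.791 and 3.20 times the array median. The second brightest probe set of RARS2 read 12.3, 9.87 and 9.93 on the parental and 19.2, 19.6 and 18.5 on the resistant arrays (0.84 ± 0.15, adjusted p = 0.00837). That of EARS2 which rose gave 0.83 ± 0.20 (adjusted p = 0.0314), and its groups did not overlap.

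Other genes of the pathway were described by lists. Among 28 tested amino acid response genes, most of them known to respond to ATF4, 4 fell and 1 rose with all arrays, with a median of -0.71. Over all tested genes 5.05% fell and 7.37% rose. When parental array 3 was left out, 22 fell and 1 rose, with a median of -1.21, against 15.3% and 16.9% of all tested genes. Parental array 3 was below both other parental arrays for 27 of the 28, and at least 2-fold lower for 18. Over all tested genes these shares were 42.2% and 4.67%.

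SLC7A1, a carrier of arginine and lysine, fell 2.91-fold (-1.54 ± 0.21, adjusted p = 0.00211), with signals of 353, 365 and 193 on the parental and 99.6, 99.6 and 102 on the resistant arrays. PSPH, which makes serine in its final step, fell 2.27-fold (-1.19 ± 0.21, adjusted p = 0.00887). DDIT4, an inhibitor of mTORC1, fell 3.38-fold (-1.76 ± 0.41, adjusted p = 0.0264), and the transcription factor ATF5 fell 1.62-fold (-0.69 ± 0.18, adjusted p = 0.0362). ALDH18A1, an enzyme of proline synthesis, rose 1.78-fold (0.83 ± 0.12, adjusted p = 0.00283). In all 5 genes the groups did not overlap. The calls of DDIT4 and ATF5 were lost on leaving out any array other than parental array 3 (adjusted p from 0.0508 to 0.112 and from 0.0789 to 0.128), and that of PSPH without resistant array 2 (0.0535). With the mean of all its probe sets ATF5 gave -0.03 (adjusted p = 0.973).

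Other members of this list followed the order seen in AARS1 and WARS1. ASNS, the asparagine synthetase, read 216, 215 and 37.6 on the parental and 53.7, 63.8 and 59.2 on the resistant arrays. Its change was -1.04 ± 0.54 (adjusted p = 0.252) and, without parental array 3, -1.87 ± 0.10 (adjusted p = 6.34e-07). TRIB3, a pseudokinase that restrains ATF4, read 203, 224 and 37.2 against 38.9, 43.1 and 47.8, with -1.47 ± 0.55 and -2.31 ± 0.11 in the 2 fits (adjusted p = 0.116 and 2.98e-07). Parental array 3 was the lowest of the 6 arrays in both genes. These 2 genes were chosen after their values were seen.

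**Figure D4:**
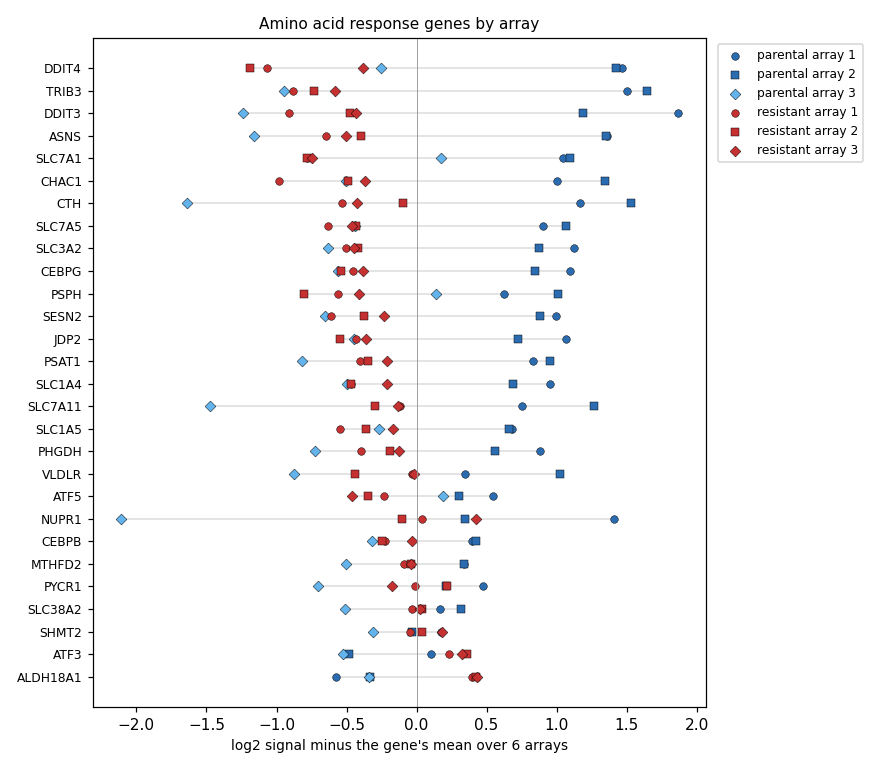
Log2 signal of the 28 tested amino acid response genes on each array, after subtraction of the gene's mean over the 6 arrays (blue parental, with parental array 3 in light blue, and red resistant). Parental array 3 lies to the left of both other parental arrays for 27 of 28 genes, and SLC7A1 fell from 353, 365 and 193 to 99.6, 99.6 and 102.

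The transcript of ATF4 itself read 278, 268 and 141 on the parental and 171, 180 and 181 on the resistant arrays. Its change was -0.31 ± 0.22 (adjusted p = 0.409) and, without parental array 3, -0.63 ± 0.08 (adjusted p = 0.000278). It belonged to a list of 11 tested genes that sense uncharged tRNA or act on the initiation factor eIF2. With all arrays 1 rose and 0 fell (median -0.07), against 7.37% and 5.05% of all tested genes. The 1 was EIF2AK2, the kinase that responds to double-stranded RNA (0.41 ± 0.11, adjusted p = 0.0444), a call lost on leaving out any array other than parental array 3 (adjusted p from 0.0689 to 0.173). Without parental array 3, 1 rose and 3 fell, against 16.9% and 15.3% of all tested genes. EIF2AK4 gave -0.28 ± 0.16 (adjusted p = 0.298).

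Partners of the synthetases and tRNA handling genes held 10 tested genes. With all arrays 3 rose and 1 fell (median 0.18), against 7.37% and 5.05% of all tested genes. Another count, without parental array 3, gave 4 that rose and 2 that fell, against 16.9% and 15.3%. TARS3, a second threonine enzyme outside the naming rule, rose 3.28-fold (1.71 ± 0.24, adjusted p = 0.00274), with signals of 2.51, 1.35 and 1.97 on the parental and 6.23, 5.96 and 6.32 on the resistant arrays. GATB and QRSL1, of the mitochondrial amidotransferase that makes glutaminyl-tRNA, rose 1.98-fold (0.99 ± 0.21, adjusted p = 0.018) and 1.81-fold (0.85 ± 0.17, adjusted p = 0.0136). The remaining subunit GATC gave -0.06 ± 0.13 (adjusted p = 0.797). XPOT, the exporter of tRNA from the nucleus, fell 1.88-fold (-0.91 ± 0.23, adjusted p = 0.0374). TARS3 kept its call when any single array was left out. Those of GATB and XPOT were lost on leaving out any array other than parental array 3 (adjusted p from 0.0516 to 0.0872 and from 0.0975 to 0.144), and that of QRSL1 in 3 of the 6 cases (up to 0.0767). When all probe sets of each gene were averaged, none of these 4 passed (adjusted p from 0.0649 to 0.419), and the changes of TARS3 and GATB were 1.11 and 0.64.

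Of 9 tested mitochondrial translation factors 1 rose and 1 fell (median 0.30), and 5 rose and 2 fell without parental array 3 (median 0.38). Over all tested genes 7.37% rose and 5.05% fell with all arrays, and 16.9% and 15.3% without parental array 3. MTIF3, an initiation factor, fell 2.05-fold (-1.04 ± 0.16, adjusted p = 0.00418), and MTRF1L, a release factor, rose 1.59-fold (0.67 ± 0.16, adjusted p = 0.0289). The call of MTRF1L was lost without parental array 1 or any resistant array (adjusted p from 0.0844 to 0.119), and with the mean of all its probe sets its change was 0.31 (adjusted p = 0.628). With that mean MTIF3 gave -0.85 (adjusted p = 0.0682). TUFM, the elongation factor that brings charged tRNA to the mitochondrial ribosome, read 62.3, 55.1 and 82.6 on the parental and 82.7, 84.9 and 87.4 on the resistant arrays (0.37 ± 0.15, adjusted p = 0.147, and adjusted p = 0.00277 without parental array 3). Of the 4 tested cytosolic elongation factors 1 rose with all arrays, EEF1A2, which delivers charged tRNA to the ribosome (0.72 ± 0.14, adjusted p = 0.0126), a call lost on leaving out any of the resistant arrays (adjusted p from 0.0593 to 0.0737). The others lay between -0.28 and 0.32 and did not pass the test. When parental array 3 was left out, 2 rose and 1 fell.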

How the data were processed

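Total RNA was hybridised to 6 arrays of the Affymetrix type HG U133 Plus 2.0, and p-values measure only the spread between samples, which may be technical, since no source states that they were separate cultures. The authors deposited 1 intensity per probe set and array on a linear scale, made with MAS5 per the submitters' processing notes. The MAS5 version and its target intensity were not stated in any source used here, and ratios of the authors' own comparison were not used. Intensities were divided by the array's median, zeros were set to 0.05, and log2 values were fitted with limma 3.58.1 in R 4.3.3 (lmFit, eBayes with intensity trend) for 26563 probe sets whose mean was at least the array median. Tests were checked on simulated data. GEO's platform annotation gave 41091 probe sets 1 gene, 1801 several and 11721 none, and the brightest single-gene probe set stood for a gene. The members and all gene lists were chosen with earlier results of these data known. All members were described, and called genes and a few others of the related lists. The closing section gives the alternatives tried. Same-numbered arrays did not deviate together (r from -0.0292 to -0.0165). That gives no evidence that the numbers pair arrays, and with 3 arrays per group it cannot exclude it. The number of arrays limits precision, and an exact permutation of 3 against 3 arrays cannot go below p = 0.1.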

Additional observations from a re-analysis of the deposited data

How the results depend on the processing

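Over 555 values of members under the alternatives, 506 kept direction and side of the threshold, 20 passed it newly (17 of them without parental array 3) and 8, all of RARS2, lost it. The other 21 values, of 10 genes, changed sign, and 0 of them passed the test. Averaging all probe sets turned TARS1 to 0.20 and LARS1 to -0.078. Without further scaling LARS1 gave -0.042 and SARS2 -0.019, and with unique probe sets alone WARS1 gave 0.012. Leaving out 1 array at a time, the change ran from -0.25 to 0.25 for LARS1, from -0.58 to 0.061 for YARS1, from -0.69 to 0.34 for AARS1, from -0.73 to 0.33 for WARS1 and from -0.44 to 0.32 for YARS2. It ran from -0.099 to 0.048 for VARS2, from -0.11 to 0.23 for SARS2, from -0.056 to 0.16 for MARS2 and from -0.057 to 0.077 for PARS2. Leaving out 1 array at a time, the number of cytosolic genes that fell ran from 0 to 10 and that rose from 0 to 1, and their median from -0.63 to 0.048, positive without parental array 1 or 2. Mitochondrial genes that rose ran from 0 to 7 and their median from 0.15 to 0.39. The high counts came without parental array 3. The related lists ran from 2 to 23 changed genes for the amino acid response, 0 to 4 for tRNA sensing, 1 to 6 for partners, 0 to 3 for cytosolic elongation factors and 1 to 7 for mitochondrial factors. After quantile normalization 1 cytosolic gene fell (NARS1) and 2 cytosolic elongation factors changed. With a filter at 3 times the array median, 2 mitochondrial synthetases rose and 2 elongation factors changed. Without further scaling 0 tRNA sensing genes and 1 mitochondrial factor changed, and without a filter 0 tRNA sensing genes. Without the intensity trend, 0 mitochondrial synthetases rose, and 2 amino acid response genes, 0 sensing genes, 2 partners, 0 elongation factors and 1 mitochondrial factor changed. With an ordinary t-test after Benjamini-Hochberg adjustment these counts were 0, 1, 0, 0, 0 and 0. The study's own software and filter were not applied. With the mean of all probe sets, 0 mitochondrial synthetases rose, and 0 sensing genes, 0 partners and 0 mitochondrial factors changed. With probe sets of the unique type alone, 3 amino acid response genes, 2 sensing genes and 0 mitochondrial factors changed. At a change of at least 2-fold, 0 mitochondrial synthetases rose, and 3 amino acid response genes, 0 sensing genes, 1 partner, 0 elongation factors and 1 mitochondrial factor changed. With the replicate number as a block, 0 sensing genes and 1 mitochondrial factor changed, the calls of EIF2AK2, MTRF1L and ATF5 were lost, and no member's call changed. The numbers are shared without evidence of pairing. The cause of these shifts was not tested.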
